A study of Mus musculus with 16 samples.

Results

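The mRNAs of selenoproteins were examined in AML12 cells, a mouse hepatocyte line, after depletion of the ribosomal anti-association factor eIF6. The genes were chosen by name, from 10 names that encode selenoproteins: Gpx1, Gpx4, Txnrd1, Txnrd2, Sepp1, Sepw1, Selk, Sels, Selt and Dio1. The array carried 9 of these 10 names, out of 30214 gene names in all. Of these 9 genes, 8 were measured above background and tested among 19364 genes, and Dio1 was not. No probe was named Sels, but the accession of the gene called Vimp on the array is listed under Selenos in RefSeq with Sels as a synonym, so Vimp is described beside the members without being counted among them. RefSeq now calls Sepp1 Selenop, Sepw1 Selenow, Selk Selenok and Selt Selenot, and the names of the array are kept here.

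The study asked how depletion of eIF6 alters the set of mRNAs on polysomes under insulin. AML12 cells carried an inducible shRNA delivered by lentivirus, either a scramble sequence or an shRNA that the labels call only shrna and the methods identify as directed at eIF6. Every culture of every group received doxycycline and then insulin for 1 h, so no group shows the basal state. The description of the samples gives the insulin as 100 nM and their treatment protocol as 100 mM. All cells grew in medium with fetal bovine serum, dexamethasone and a mixture of insulin, transferrin and selenium, so selenium was supplied to every group. Lysates were separated on sucrose gradients into a polysomal pool and a lighter, subpolysomal pool, and each RNA was hybridized to its own one-colour array. The 4 groups were subpolysomal and polysomal RNA of scramble cells and the same 2 fractions of eIF6 shRNA cells, and 4 arrays measured each group. Every one of the 4 slides held 1 array of each group, and the methods describe biological quadruplicates.

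Selenoproteins contain selenocysteine, which is inserted at a UGA codon that would otherwise end translation. Recoding needs a stem-loop in the 3′ untranslated region called the SECIS element, the SECIS-binding protein SBP2 and a dedicated elongation factor, eEFSec, that carries the selenocysteine tRNA. Where recoding fails, the ribosome stops at the UGA, and some selenoprotein mRNAs are then open to nonsense-mediated decay. Liver is the main source of the circulating selenoprotein P that carries selenium to other tissues, and hepatocytes also depend on selenoenzymes that remove peroxides and reduce thioredoxin.

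Each tested member was read by 1 or 2 probes of 60 bases, and the coordinates given are those of the array on mouse build mm9. The 30 bases printed for a gene are part of the probe behind its values, for the genes discussed most, so that the measured stretch of each mRNA can be identified, and all were taken from the deposited files. Capitals mark AATAAA, the canonical polyadenylation signal, searched on the strand of the probe only. The excerpts of Sepw1 (chr7:16502562-16502621, minus strand) and Txnrd2 (chr16:18479106-18479165, plus strand) were placed around this motif, starting at base 28 and at base 24 of the probe. Those of Gpx1 (chr9:108242276-108242335, plus strand), Gpx4 (chr10:79518691-79518842, plus strand), Sepp1 (chr15:3230418-3230477, plus strand) and Vimp (chr7:73233759-73233818, plus strand) start at base 1.
Gpx1: actgcgctcatgaccgaccccaagtacatc
Gpx4: agtttctcattgataagaacggctgcgtgg
Txnrd2: ttctagagcactAATAAAgaggatgtttta
Sepp1: ttatggctaatacgactaagcaagaatgga
Sepw1: tgttcccggttgAATAAAgtttggatgagg
Vimp: tgacattagcaaggtgaacctttaaccctc
The motif was present in 12.6% of the 39429 probes of the array. The 60 bases of the Gpx4 probe covered 152 bases of the genome, so this probe lies across an intron. Which exon or untranslated region the other probes lie in was not determined, because no annotation of mm9 was used here.

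Signals are given as log2 of the background-corrected intensity after quantile normalization over the 16 arrays, which gives every array the same distribution. A change shared by all mRNAs of a fraction is therefore not visible in these values. The study reports reduced polysomes in insulin-stimulated eIF6 shRNA cells. It also reports, for selected targets checked by digital RT-PCR, that relatively higher mRNAs had similar absolute levels. Higher and lower on polysomes are therefore meant here relative to the other mRNAs of the fraction. As in any bulk sample, fewer cells with an mRNA and less of it per cell cannot be told apart. Comparisons were tested with the linear models of limma over all genes, and a gene is called when its Benjamini-Hochberg adjusted p is under 0.05. Between 20175 and 24950 probes per array were well above background, all probes of the 8 members and Vimp were well above it on all 16 arrays, and no spot of theirs was saturated. Eif6, the target, had polysomal log2 signals of 12.96, 12.94, 12.96 and 12.94 with the scramble shRNA and of 11.92, 12, 11.85 and 11.81 with the eIF6 shRNA, a change of -1.05 (adjusted p = 1.45e-07). Its subpolysomal signals ran from 11.53 to 11.66 and from 11.49 to 11.74, overlapping, with a change of 0.015 (adjusted p = 0.917), so a lower level was seen in polysomal RNA and not in subpolysomal RNA. Scaling to spike-in probes ended the polysomal call (-1.36, adjusted p = 0.0988). Its 3 probes gave polysomal changes of -1.38, -1.26 and -0.52. Of 10 hepatocyte markers, 7 were well above background on all 16 arrays, Alb on 7 arrays, Apoa1 on 2 and Fgb on none. Of the 9 tested, Ttr alone was called between the shRNAs, higher on polysomes (1.15, adjusted p = 5.52e-07) and in subpolysomes (1.33, adjusted p = 2e-07). The shares called over all genes were 21.8% on polysomes and 24.2% in subpolysomes. Of 8 fibroblast and stellate cell markers, 5 were well above background on all arrays, and Lum was at background on all. Of the 7 tested, 6 were called lower on polysomes of eIF6 shRNA cells, beside 10.7% of all genes. The summed signal of the 7 ran from 161550 to 275030 on polysomal arrays of scramble cells and from 27093 to 43925 on those of eIF6 shRNA cells. The part of this shift in the changes below was not tested. Of the markers of other liver cells, 0 of 5 for cholangiocytes, 1 of 4 for macrophages (Csf1r, lower) and 0 of 2 for endothelium were called on polysomes in limma, beside 21.8% of all genes. Cdh5 and Stab2 of endothelium were at background on all arrays.

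On polysomes, 3 of the 8 selenoprotein mRNAs were higher in eIF6 shRNA cells than in scramble cells, and none was lower. These were Sepw1 (1.82-fold), Sepp1 (1.68-fold) and Gpx4 (1.31-fold). Over all genes, 11.1% were called higher on polysomes and 10.7% lower, 21.8% in all. In subpolysomal RNA only Sepp1 was called among the 8, at 1.35-fold higher, against 11.8% of all genes called higher and 12.3% lower, 24.2% in all. The median polysomal change of the 8 mRNAs was 0.20 on the log2 scale, beside 0.016 over all genes, and their median subpolysomal change was -0.0037, beside 0.025. The polysomal change minus the subpolysomal change, called here the change in translational efficiency, was called for 0 of the 8 mRNAs in limma. At an unadjusted p under 0.05 it was passed by 3 of them (Gpx1, Gpx4 and Sepw1). Over all genes, 0.403% were called higher and 1.11% lower in translational efficiency, 1.51% in all, and 2421 of 19364 passed the unadjusted threshold.

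**Figure D1:**
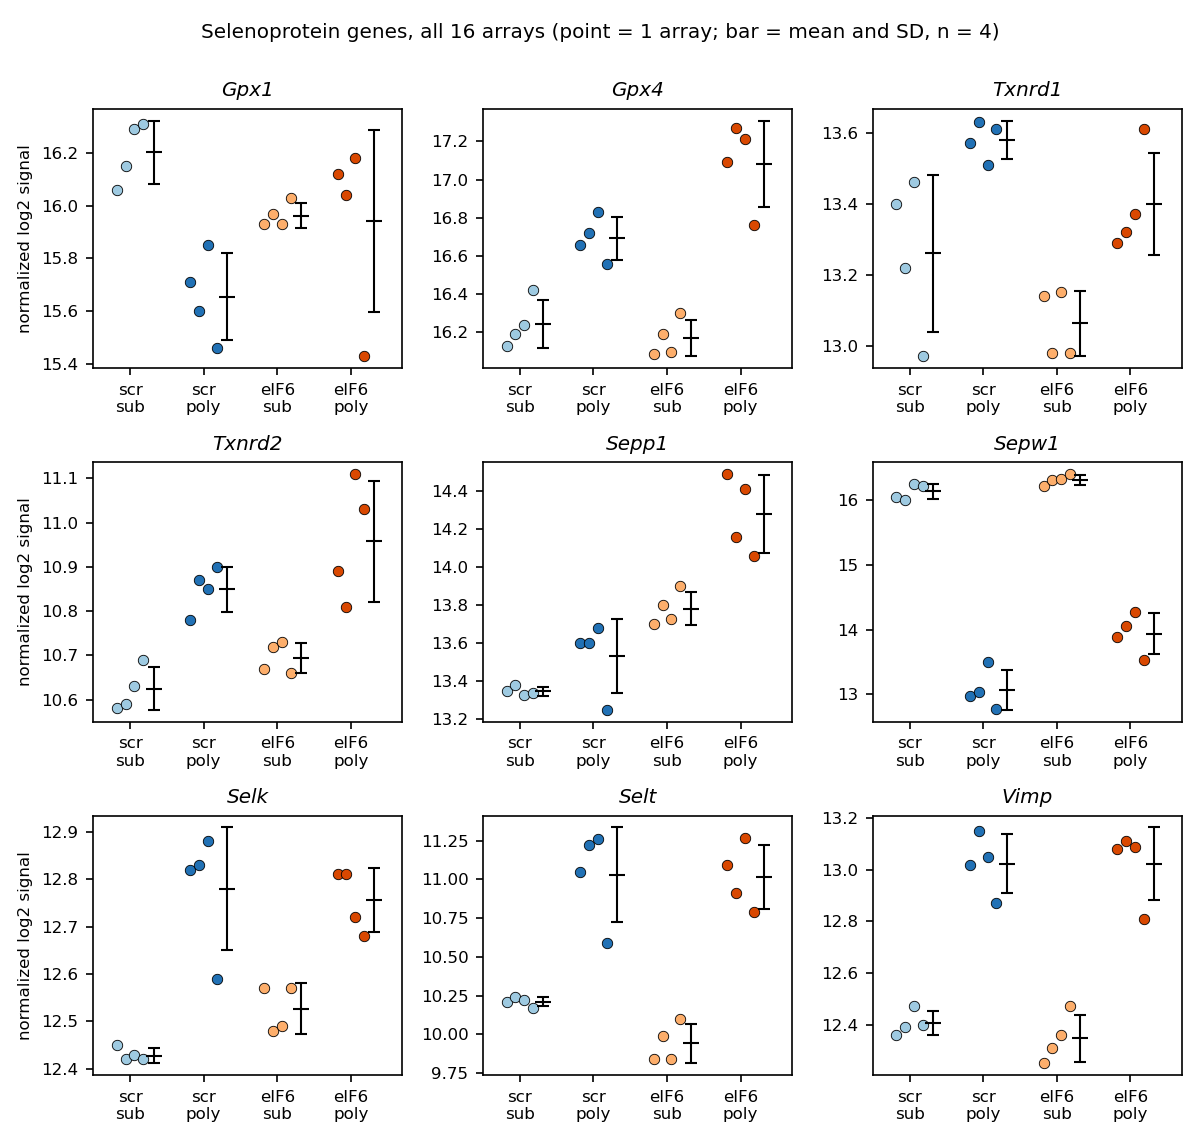
Normalized log2 signal (y axis, own range per panel) of the 8 selenoprotein mRNAs and Vimp on each of the 16 arrays, by group on the x axis (scr, scramble shRNA; eIF6, eIF6 shRNA; sub, subpolysomal; poly, polysomal), with replicates 1 to 4 from left to right and the mean and SD (n = 4) beside them. Sepw1 is lower on polysomes than in subpolysomes in both cell types, and the polysomal arrays of Sepp1 and Sepw1 do not overlap between the shRNAs.

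The glutathione peroxidases Gpx1 and Gpx4 lay on opposite sides of the gradient in scramble cells after quantile normalization, but on the same side with each of the other 2 scalings. Gpx1, the cytosolic enzyme that reduces hydrogen peroxide, had polysomal log2 signals of 15.71, 15.60, 15.85 and 15.46 in scramble cells and 16.12, 16.04, 16.18 and 15.43 in eIF6 shRNA cells. Its subpolysomal signals were 16.06, 16.15, 16.29 and 16.31 in scramble cells and 15.93, 15.97, 15.93 and 16.03 in eIF6 shRNA cells. Of the eIF6 shRNA polysomal arrays, 3 lay above every scramble array and replicate 4 lay below them all, whereas in subpolysomes all 4 arrays of eIF6 shRNA cells lay below those of scramble cells. Neither difference was called: the polysomal change was 0.29 (95% interval -0.016 to 0.59, adjusted p = 0.185) and the subpolysomal change -0.24 (95% interval -0.54 to 0.062, adjusted p = 0.247). In scramble cells Gpx1 was 1.46-fold lower on polysomes than in subpolysomes (log2 difference -0.55, standard error 0.14, adjusted p = 0.00374), and in eIF6 shRNA cells the difference was -0.021 (adjusted p = 0.908). The difference between these values is the change in translational efficiency, 0.53 (95% interval 0.098 to 0.95), which was not called (adjusted p = 0.271). Without replicate 4 of the eIF6 shRNA cells, the polysomal change of Gpx1 was 0.45 (adjusted p = 0.00514) and its change in translational efficiency 0.71 (adjusted p = 0.0277), and both were called.

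Gpx4 reduces lipid hydroperoxides in membranes and is the enzyme that holds back ferroptosis. Its polysomal log2 signals were 16.66, 16.72, 16.83 and 16.56 in scramble cells and 17.09, 17.27, 17.21 and 16.76 in eIF6 shRNA cells. The groups overlapped through replicate 4 of the eIF6 shRNA cells, which lay below the highest scramble array. Its polysomal level rose by 0.39 on the log2 scale (SE 0.11, adjusted p = 0.0191). It was above 0 on each of the 4 slides, between 0.11 and 0.70. The subpolysomal arrays of Gpx4 ranged from 16.13 to 16.42 in scramble cells and from 16.09 to 16.30 in eIF6 shRNA cells, a change of -0.076 (95% interval -0.31 to 0.16, adjusted p = 0.672). Gpx4 was higher on polysomes than in subpolysomes in both cell types, 1.36-fold in scramble cells (adjusted p = 0.00279) and 1.88-fold in eIF6 shRNA cells (adjusted p = 5.16e-06), but with the 75th percentile it was lower on polysomes in scramble cells (-0.35, adjusted p = 0.0423). The change in translational efficiency was 0.47 (95% interval 0.13 to 0.80, adjusted p = 0.192). The polysomal call of Gpx4 was lost when scramble replicate 1 or 2 or eIF6 shRNA replicate 1, 2 or 3 was left out, with adjusted p between 0.0506 and 0.0797.

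Neither thioredoxin reductase was called between the shRNAs. Txnrd1, the cytosolic enzyme that reduces thioredoxin with NADPH, ran from 13.51 to 13.63 on polysomes of scramble cells and from 13.29 to 13.61 on those of eIF6 shRNA cells. Its polysomal change was -0.18 (95% interval -0.41 to 0.048, adjusted p = 0.28) and its subpolysomal change -0.20 (95% interval -0.43 to 0.030, adjusted p = 0.204), and in both fractions the arrays overlapped. Without scramble replicate 4 the subpolysomal change was -0.30 and called (adjusted p = 0.0348). Txnrd2, the mitochondrial enzyme, had a polysomal change of 0.11 (95% interval -0.050 to 0.27, adjusted p = 0.36) and a subpolysomal change of 0.069 (95% interval -0.090 to 0.23, adjusted p = 0.556). Both mRNAs were higher on polysomes than in subpolysomes. The log2 difference was 0.32 (adjusted p = 0.018) in scramble cells and 0.34 (adjusted p = 0.0133) in eIF6 shRNA cells for Txnrd1, and 0.22 (adjusted p = 0.0179) and 0.26 (adjusted p = 0.00663) for Txnrd2. Their changes in translational efficiency were 0.017 (95% interval -0.31 to 0.34) and 0.041 (95% interval -0.18 to 0.27). Single arrays decided some of these calls. In scramble cells Txnrd1 lost its call without scramble replicate 2 or 4, and Txnrd2 without scramble replicate 1, 2 or 3 (adjusted p between 0.0513 and 0.0919). In eIF6 shRNA cells Txnrd1 lost it without eIF6 shRNA replicate 4 (0.24, adjusted p = 0.0945).

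Sepp1 encodes selenoprotein P, the secreted carrier of selenium and a selenoprotein with many UGA codons to be recoded. Its polysomal log2 signals were 13.60, 13.60, 13.68 and 13.25 in scramble cells and 14.49, 14.16, 14.41 and 14.06 in eIF6 shRNA cells. Its subpolysomal signals were 13.35, 13.38, 13.33 and 13.34 in scramble cells and 13.70, 13.80, 13.73 and 13.90 in eIF6 shRNA cells. In both fractions every array of eIF6 shRNA cells lay above every array of scramble cells. Among all genes, the arrays of the shRNAs did not overlap in 22.4% on polysomes (11.1% higher and 11.4% lower), where this held for 2 of the 8 members, Sepp1 and Sepw1, both higher. In subpolysomes it held for 31.6% of all genes (15.6% higher and 15.9% lower) and for 4 of the 8 members, Sepp1 and Selk higher and Gpx1 and Selt lower. The polysomal change of Sepp1 was 0.75 (standard error 0.11, adjusted p = 0.000135) and its subpolysomal change 0.43 (standard error 0.11, adjusted p = 0.0099). Both were called with each replicate left out in turn, at 0.66 to 0.82 and at 0.40 to 0.46. The change in translational efficiency was 0.31 (95% interval -0.020 to 0.65, adjusted p = 0.441). Sepp1 was 1.41-fold higher on polysomes than in subpolysomes in eIF6 shRNA cells (adjusted p = 0.00122), and in scramble cells the log2 difference was 0.18 (95% interval -0.053 to 0.42, adjusted p = 0.167), which was called without scramble replicate 4 (0.28, adjusted p = 0.0455). The translational efficiency test above compares these differences, and it was not passed.

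Sepw1 encodes selenoprotein W, a small cytosolic protein with a thioredoxin-like fold. It was the member with the largest difference between the fractions. Its subpolysomal log2 signals were 16.05, 16, 16.25 and 16.21 in scramble cells and 16.21, 16.31, 16.32 and 16.40 in eIF6 shRNA cells. Its polysomal signals were 12.97, 13.04, 13.50 and 12.77 in scramble cells and 13.88, 14.06, 14.27 and 13.53 in eIF6 shRNA cells. Every polysomal array lay below every subpolysomal array, and the polysomal arrays of the shRNAs did not overlap. Sepw1 was thus 8.33-fold lower on polysomes than in subpolysomes in scramble cells (log2 difference -3.06, standard error 0.16, adjusted p = 9.37e-10) and 5.19-fold lower in eIF6 shRNA cells (-2.37, standard error 0.16, adjusted p = 1.56e-08). Only 0.795% of all genes tested had a lower log2 difference in scramble cells, and 1.67% in eIF6 shRNA cells. Between the shRNAs its polysomal level rose by 0.86 (SE 0.16, adjusted p = 0.000993), between 0.75 and 1.005 with each replicate left out and above 0 on all 4 slides. The subpolysomal change was 0.18 (95% interval -0.16 to 0.52, adjusted p = 0.467). The change in translational efficiency was 0.68 (95% interval 0.20 to 1.17), above 0 on all 4 slides, and was not called (adjusted p = 0.186).

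The members of the endoplasmic reticulum were not called between the shRNAs. Selk is a membrane protein of the reticulum that works with the palmitoyltransferase Zdhhc6, Selt is a thioredoxin-like protein anchored there, and Vimp (selenoprotein S) is a partner of the degradation machinery around Vcp and the Derlins. Selk ranged from 12.59 to 12.88 on polysomes of scramble cells and from 12.68 to 12.81 on those of eIF6 shRNA cells, a polysomal change of -0.023 (95% interval -0.18 to 0.14, adjusted p = 0.886). In subpolysomes its arrays did not overlap, at 12.42 to 12.45 in scramble cells and 12.48 to 12.57 in eIF6 shRNA cells, but the change of 0.10 was not called (95% interval -0.059 to 0.26, adjusted p = 0.371). Selt ranged from 10.59 to 11.26 and from 10.79 to 11.27 on polysomes, a change of -0.014 (95% interval -0.31 to 0.28, adjusted p = 0.964). In subpolysomes Selt lay at 10.17 to 10.24 in scramble cells and at 9.84 to 10.10 in eIF6 shRNA cells, again without overlap and without a call (change -0.27, 95% interval -0.57 to 0.027, adjusted p = 0.182). Vimp changed by 0.00043 on polysomes (95% interval -0.18 to 0.19, adjusted p = 0.998) and by -0.059 in subpolysomes (95% interval -0.24 to 0.13, adjusted p = 0.68). All 3 mRNAs were higher on polysomes than in subpolysomes: the log2 differences in scramble and in eIF6 shRNA cells were 0.35 (adjusted p = 0.000793) and 0.23 (adjusted p = 0.0146) for Selk, 0.82 (adjusted p = 0.000123) and 1.07 (adjusted p = 9.71e-06) for Selt, and 0.62 (adjusted p = 2.17e-05) and 0.68 (adjusted p = 9.16e-06) for Vimp. Selk lost its call in eIF6 shRNA cells without eIF6 shRNA replicate 1, 2 or 3 (adjusted p between 0.0514 and 0.0882) and with its brightest probe alone (0.17, adjusted p = 0.0706). The changes in translational efficiency were -0.12 (adjusted p = 0.702), 0.25 (adjusted p = 0.662) and 0.059 (adjusted p = 0.907).

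Selk and Selt each had a pair of probes, whose values were averaged. Those of Selk lie at chr14:30787828-30787887 and chr14:30788096-30788155, and gave log2 differences between polysomes and subpolysomes of scramble cells of 0.33 and 0.37. Those of Selt lie at chr3:58389875-58389934 and chr3:58396689-58396748, and gave 1.00 and 0.64. In eIF6 shRNA cells the Selt probes gave 1.41 and 0.74, the second below the 0.91 of Gpx4. Their mean subpolysomal signals in these cells were 7.41 and 12.48. For polysomal change the probes of both genes disagreed in sign, at -0.089 and 0.043 for Selk and at 0.089 and -0.12 for Selt.

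**Figure D2:**
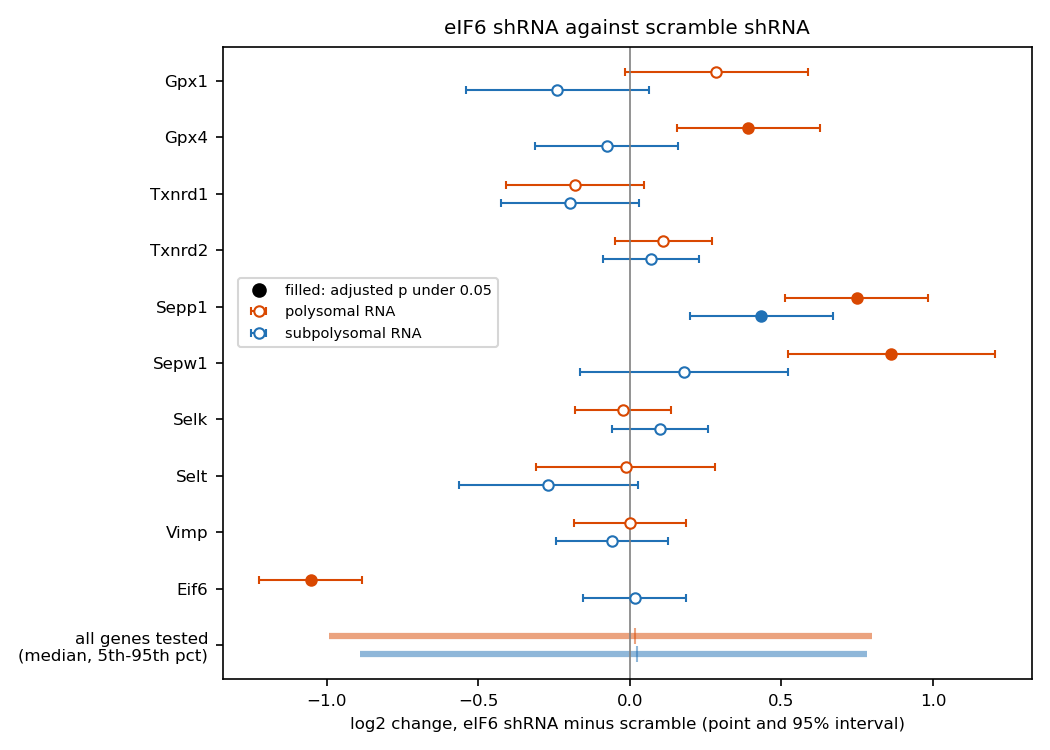
Log2 change between eIF6 shRNA and scramble cells (x axis) for the 8 selenoprotein mRNAs, Vimp and Eif6 (y axis), in polysomal RNA (orange) and subpolysomal RNA (blue), with 95% intervals from limma; filled points have an adjusted p under 0.05, and the bars in the last row span the 5th to 95th percentiles of all 19364 genes around their median. Sepw1 and Sepp1 lie at 0.86 and 0.75 on polysomes, Gpx4 at 0.39, and only Sepp1 is filled in subpolysomal RNA among the 8.

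Dio1, the hepatic deiodinase that activates thyroid hormone, had 3 probes on chromosome 4. They were well above background on 3, 0 and 1 of the 16 arrays, and none reached 2 arrays of a group. Dio1 was therefore not tested, and no level or change is given for it.

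Read over all members, the gradient placed 5 of the 8 mRNAs higher on polysomes and 2 lower (Gpx1 and Sepw1) in scramble cells, with Sepp1 not called. In eIF6 shRNA cells 6 were higher and 1 (Sepw1) lower, with Gpx1 not called. Over all genes, 31.7% were called higher and 28.4% lower on polysomes in scramble cells, 60.1% in all, and 32.1% and 28.7% in eIF6 shRNA cells, 60.8% in all. The arrays of the fractions did not overlap for the same 7 mRNAs that were called in each cell type. Over all genes this held for 54.6% in scramble cells (28.8% higher and 25.8% lower on polysomes) and 56% in eIF6 shRNA cells (29.7% and 26.3%). The median log2 difference of the members was 0.27 in scramble cells and 0.30 in eIF6 shRNA cells, beside 0.035 and 0.034 over all genes. These comparisons share arrays with those between the shRNAs, and they are set side by side without a test of their likeness.

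**Figure D3:**
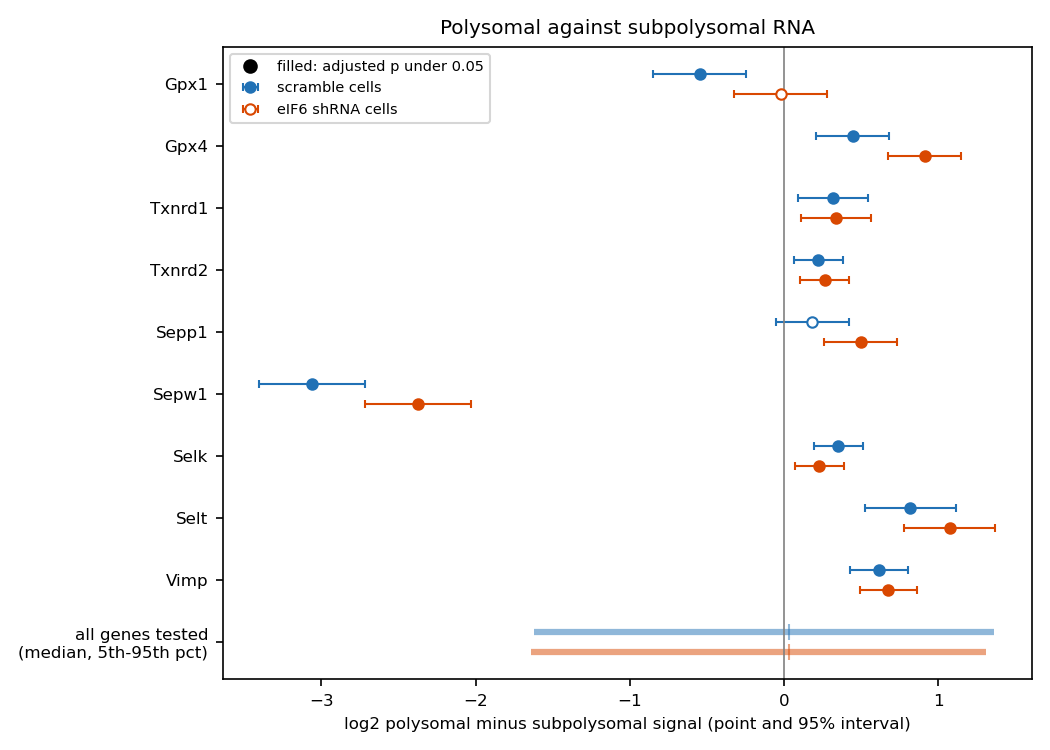
Log2 polysomal minus subpolysomal signal (x axis) of the 8 selenoprotein mRNAs and Vimp (y axis) in scramble cells (blue) and eIF6 shRNA cells (orange), with 95% intervals; filled points have an adjusted p under 0.05, and the last row gives the median and the 5th to 95th percentiles of all genes. Sepw1 lies at -3.06 and -2.37, below the 5th percentile of all genes. Selt, as the mean of its probes, is the member highest on polysomes, at 0.82 and 1.07.

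The gradient difference of Gpx4 turned with the 75th percentile, and that of Gpx1 turned with spike-in probes, where the median of all genes also rose. Before normalization the median log2 signal of the kept probes was 6.82 to 7.48 on subpolysomal arrays and 8.37 to 9.28 on polysomal arrays. When arrays were shifted to their 75th percentile in place of quantile normalization, the median of all genes moved to -0.34 in scramble cells and -0.37 in eIF6 shRNA cells, with 4111 genes called higher on polysomes and 8477 lower in scramble cells, in place of 6133 and 5498. Gpx4 then turned to -0.35 (adjusted p = 0.0423) in scramble cells and -0.28 (adjusted p = 0.102) in eIF6 shRNA cells, which is -0.012 and 0.095 relative to the median of all genes. Gpx1 went to -1.09 and -0.90 and was called lower on polysomes in both cell types, with -0.75 and -0.53 relative to the median. Sepw1 lay at -3.29 and -3.00 under this scaling, and at -1.43 and -1.32 when arrays were shifted to 7 spike-in probes, which put the median of all genes at 1.52 and 1.30 and called 13412 genes higher and 396 lower on polysomes of scramble cells. On that scale Gpx1 turned to 0.77 in both cell types and was not called (adjusted p = 0.153 and 0.172). Both scalings shift whole arrays by a constant. Its values relative to the median of all genes are therefore necessarily the same under both, -0.75 and -0.53. Selt, Selk, Txnrd1, Txnrd2 and Vimp were higher on polysomes under all 3 scalings.

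Between the shRNAs, the 75th percentile kept Sepw1 and Sepp1 as called on polysomes (0.82 and 0.71), and Gpx4 at 0.30 was not called (adjusted p = 0.171). In subpolysomes it turned Gpx4 to 0.22 and Gpx1 to 0.00045, neither called, and raised Sepw1 to 0.53, which was called (adjusted p = 0.043). The changes in translational efficiency shrank with the 75th percentile, to 0.29 for Sepw1, 0.20 for Sepp1, 0.19 for Gpx1 and 0.076 for Gpx4, and none was called. The spike-in probes moved the median polysomal change of all genes to -0.47, and none of the 8 mRNAs was called on that scale, on which limma called 101 genes higher and 1056 lower in place of 2144 and 2072. Relative to that median the polysomal changes were 0.85 for Sepw1, 0.73 for Sepp1, 0.32 for Gpx4 and 0.21 for Gpx1. The 75th percentile gives the same relative values by construction, since both scalings shift whole arrays by a constant.

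**Figure D4:**
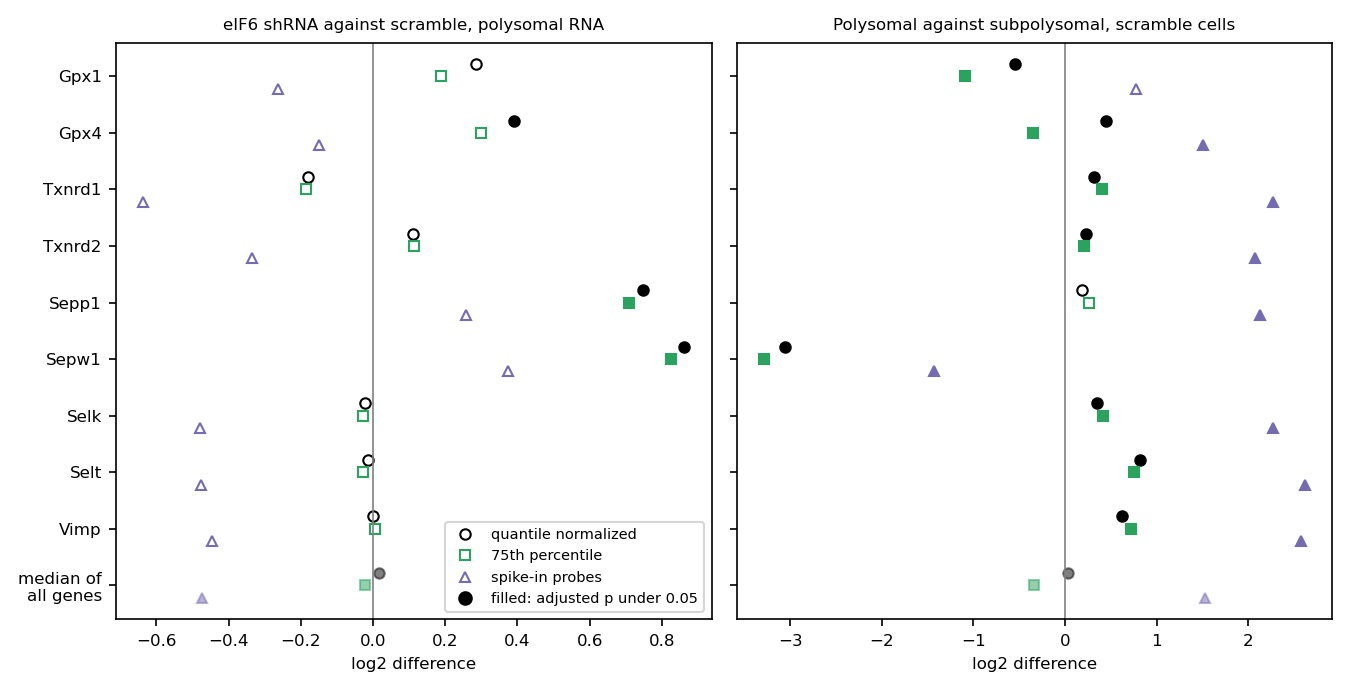
Log2 difference (x axis) of the 8 selenoprotein mRNAs and Vimp, and the median of all genes in the last row, after quantile normalization (circles), scaling to the 75th percentile (squares) and scaling to spike-in probes (triangles), for eIF6 shRNA against scramble on polysomes (left) and polysomal against subpolysomal RNA of scramble cells (right); filled points of genes have an adjusted p under 0.05. The spike-in scale puts the median at -0.47 on the left and 1.52 on the right. Within a panel, triangles differ from squares by a shift common to all genes, and circles do not. Gpx4 changes side on the right, from 0.45 to -0.35, with the 75th percentile.

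The polysomal arrays of replicate 4 stood low for most members. Of the 8 mRNAs, 6 (Gpx1, Gpx4, Sepp1, Sepw1, Selk and Selt) had their lowest polysomal signal in replicate 4, both in scramble and in eIF6 shRNA cells, and so did Vimp. The share of all genes with this pattern is not given here, so it is not read as particular to the members. The polysomal arrays of replicate 4 are meant in what follows. These arrays lay on different slides and had 24067 and 23289 probes well above background, beside 22057 to 24529 on the other polysomal arrays. Before normalization the median log2 signal of the scramble array was 9.28, above the 8.37 to 8.81 of all other polysomal arrays, and that of the eIF6 shRNA array was 8.54. Across genes, their deviations from the group means had a correlation of 0.41, against -0.039 to 0.12 for the other replicate numbers. With replicate 4 of both shRNAs left out, an alternative chosen after seeing the data, Gpx1, Gpx4, Sepp1 and Sepw1 were called higher on polysomes, and Gpx1 and Gpx4 were called higher in translational efficiency (0.62, adjusted p = 0.0424, and 0.52, adjusted p = 0.0462). In subpolysomes Selt (-0.33, adjusted p = 0.0256) and Txnrd1 (-0.27, adjusted p = 0.0282) were then called lower beside Sepp1, which was called higher. Over all genes, 2632 were then called higher and 2371 lower on polysomes, in place of 2144 and 2072. In subpolysomes 3050 and 3107 were called, in place of 2294 and 2390. In translational efficiency 118 and 184 were called, in place of 78 and 214.

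Of 14 other selenoprotein genes, 13 were on the array and 12 were tested. On polysomes 1 was higher (Dio3) and 2 were lower (Selm and Gpx3), beside 21.8% of all genes called, and in subpolysomes 1 was higher and 2 were lower, beside 24.2%. Their medians were 0.036 and -0.067. Dio3, the deiodinase that inactivates thyroid hormone, was higher in both fractions. Its signal was low in scramble cells, with a subpolysomal mean of 3.81, well above background on 3 of the 4 arrays there. Its log2 signal rose from 3.25 to 4.03 on polysomal arrays of scramble cells to 4.82 to 5.89 on those of eIF6 shRNA cells (polysomal change 1.45, adjusted p = 0.00132), and its subpolysomal change was 0.91 (adjusted p = 0.028), a call lost without scramble replicate 1 or eIF6 shRNA replicate 1 or 2 (adjusted p between 0.0835 and 0.112). Selm, a thioredoxin-like protein of the endoplasmic reticulum, fell in both fractions, with changes of -0.69 on polysomes (adjusted p = 0.000457) and -0.87 in subpolysomes (adjusted p = 7.34e-05), with no overlap between arrays. The gene listed as 2700094K13Rik, which encodes selenoprotein H of the nucleolus, was lower in subpolysomes (-0.67, adjusted p = 0.0023), and its polysomal change was -0.18 (adjusted p = 0.439). Gpx3, the secreted plasma peroxidase, was well above background on all 4 polysomal arrays of scramble cells and on no other array, so it passed the filter only through the group where it was high, and its call is no test of a difference. Its polysomal signal in eIF6 shRNA cells was at least 2.06-fold lower, taking the lowest signal well above background on each array as the bound.

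Of 15 genes for selenocysteine synthesis, UGA recoding and selenium uptake, 13 were tested. On polysomes 1 was higher and 1 lower, beside 11.1% and 10.7% of all genes, and in subpolysomes 1 was higher and 2 were lower, beside 11.8% and 12.3%. Secisbp2, the SECIS-binding protein, had a polysomal change of 0.23 (adjusted p = 0.232) and Eefsec, the elongation factor, one of -0.22 (adjusted p = 0.507). Scly, the selenocysteine lyase that releases selenium for reuse, was higher in both fractions, by 0.86 on polysomes (adjusted p = 4.85e-06) and 0.92 in subpolysomes (adjusted p = 3.54e-06). Its polysomal arrays ran from 11.66 to 11.88 in scramble cells and from 12.46 to 12.82 in eIF6 shRNA cells, without overlap. Pstk, the kinase that prepares the seryl-tRNA for conversion, fell, with changes of -0.30 on polysomes (adjusted p = 0.00847) and -0.23 in subpolysomes (adjusted p = 0.0345), the second a call lost when any of replicates 1 to 3 of either shRNA was left out (adjusted p up to 0.108). Lrp8, a receptor for selenoprotein P, was lower in subpolysomes (-0.45, adjusted p = 0.00399), and its polysomal change was -0.20 (adjusted p = 0.178). None of the 13, and none of the 12 other selenoproteins, was called in translational efficiency, the test of a difference between the fractions. Sephs2, a selenophosphate synthetase that is itself a selenoprotein and stands in both lists, was high on polysomes, with log2 differences of 1.93 in scramble cells and 1.91 in eIF6 shRNA cells, whereas Secisbp2 was low, at -0.93 and -0.87.

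**Figure D5:**
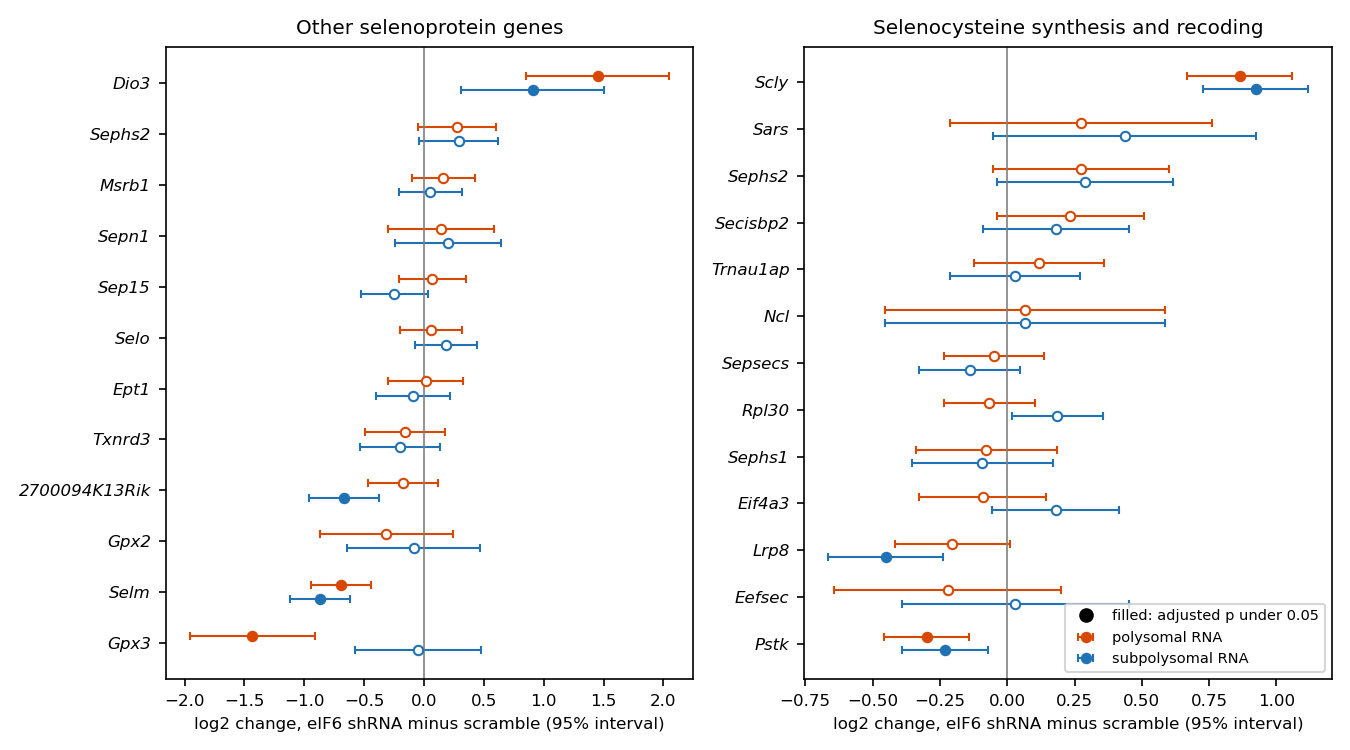
Log2 change between eIF6 shRNA and scramble cells (x axis, own range per panel) with 95% intervals for 12 other selenoprotein genes (left) and 13 genes of selenocysteine synthesis, recoding and selenium uptake (right), in polysomal (orange) and subpolysomal RNA (blue); filled points have an adjusted p under 0.05. Dio3 and Scly lie to the right of 0 in both fractions and Selm and Pstk to the left of it; the polysomal point of Gpx3 is a measured value of a probe below background in eIF6 shRNA cells.

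Thiol enzymes that work beside the selenoproteins but carry no selenocysteine were examined next. Of 21 thioredoxin and glutathione partners, 8 were lower and 1 was higher on polysomes, beside 10.7% and 11.1% of all genes, and 9 were lower and 1 was higher in subpolysomes, beside 12.3% and 11.8%, with medians of -0.21 and 0.056. The largest changes were those of Gpx7, Gpx8 and Msrb3, peroxidases and a methionine sulfoxide reductase of the endoplasmic reticulum. Gpx8 fell by 2.04 on polysomes (adjusted p = 3.36e-10) and 1.89 in subpolysomes (adjusted p = 2.02e-09), and Msrb3 by 0.99 (adjusted p = 4.49e-06) and 1.37 (adjusted p = 2.3e-07). Gpx7 fell by 3.01 on polysomes (adjusted p = 8.29e-08), with 2 of the 4 eIF6 shRNA arrays well above background. In subpolysomes it was well above background on all 4 scramble arrays and on no eIF6 shRNA array, at least 2.22-fold lower (adjusted p = 4.75e-05). Of the partners of Selk and Vimp in degradation from the reticulum, 11 were tested, and Edem1 was the only one called, lower on polysomes (-0.59, adjusted p = 0.018) and in subpolysomes (-0.52, adjusted p = 0.0329). Both calls of Edem1 were lost without scramble replicate 1 or 2 or eIF6 shRNA replicate 3, among others, with adjusted p up to 0.0627 on polysomes and 0.114 in subpolysomes. Of 13 factors of nonsense-mediated decay, Smg5 alone was called, lower in both fractions (-0.49, adjusted p = 0.0185, and -0.49, adjusted p = 0.016). Its polysomal call was lost without scramble replicate 1 or 3 or eIF6 shRNA replicate 4 (-0.35 without the last of these, adjusted p up to 0.0694). Of 6 tested genes for thyroid hormone handling, Slc16a10, a transporter, was higher on polysomes (1.21, adjusted p = 0.0286), a call lost without scramble replicate 1, 2 or 3 or eIF6 shRNA replicate 1 or 3 (values down to 1.01, adjusted p up to 0.114). Crym, a binding protein, was at least 1.63-fold higher there, being well above background on the 4 polysomal arrays of eIF6 shRNA cells and on no other array, so that its call is no test of a difference. In subpolysomes Slc16a10 was well above background on 2 of 4 eIF6 shRNA arrays and on no scramble array. No bound on its change is therefore given, and its call as higher there (adjusted p = 0.0148 in limma) rests mostly on readings at background. This call was lost without scramble replicate 1 or eIF6 shRNA replicate 4 (adjusted p up to 0.0597).

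The genes whose profiles over the 16 arrays were most like those of the members were found by the root mean square difference between profiles, each centred on its own mean. For Sepw1 these were 5031434O11Rik (0.21 on the log2 scale) and Mir22hg (0.22), against a root mean square of 1.41 for the profile of Sepw1 itself. Both were lower on polysomes of scramble cells, at -2.62 and -2.82, which the choice by likeness to Sepw1 largely fixed. For Sepp1 they were 4732471J01Rik (0.085) and Dusp3 (0.092), and for Gpx4 Ndufb3 (0.10) and Atp6v1f (0.11), a subunit of respiratory complex I and a subunit of the lysosomal proton pump. For Gpx1 they were Purg (0.10) and Dynlt1c (0.12), for Selt Ndufs5 (0.091) and Ctnnbip1 (0.099), and for Selk Rpl34 (0.044) and Gm13215 (0.064). For Txnrd1 they were Sept11 (0.092) and Asun (0.097), for Txnrd2 Wbp4 (0.068) and Utp3 (0.079), and for Vimp Ube2j2 (0.051) and Hddc2 (0.064).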

How the data were processed

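The authors deposited, for each array, the output of Agilent Feature Extraction (10.7.7.1 in the submitters' processing notes, 10.7.3.1 in the file headers), in which each spot has a background-subtracted intensity on the scale of its own array and quality flags. The authors made a further file of log2 values by quantile normalization of all arrays together, and it served as an alternative. The array design and the scan resolution in the headers differ from the methods.

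Here, log2 intensities of repeated spots were averaged and uneven or outlying spots left out (82 missing probe values). Of 39429 probes, the 25259 that 2 or more arrays of some group read well above background were kept. Kept probes were quantile normalized, and probes of a gene name were averaged. limma 3.58.1 in R 4.3.3 was fitted with 1 mean per group, with Benjamini-Hochberg adjustment over 19364 genes and a threshold of 0.05. The procedure was tested on simulated data. The number of arrays limits the precision. Correlations across genes between same-numbered arrays of different groups ran from -0.21 to 0.41, so the numbers were not taken as pairs.

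Bounds for probes at background used the lowest signal well above background on each array. Alternatives were other scalings, background correction (normexp, offset 50), filters, the brightest probe, the authors' table, slide or replicate number as a block, each fraction normalized alone, and replicates left out. The text names all members and Eif6, each called gene of the lists of other selenoproteins and of recoding, up to 3 called genes per further list and comparison by size, the 2 nearest profiles, and, outside this rule and chosen with their values known, Secisbp2, Eefsec and Sephs2. Marker lists of cholangiocytes, macrophages and endothelium were also read. Members and lists were chosen with earlier results of these data known. Gene names and coordinates are those of the files, matched to RefSeq by symbol or accession. Figures used matplotlib 3.10.9 in Python 3.11.15.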

Additional observations from a re-analysis of the deposited data

Results flagged for a closer look

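Vimp was flagged for a single array. Its polysomal log2 signal in replicate 4 of the eIF6 shRNA cells, 12.81, was below the other 3 arrays of the group, at 13.08 to 13.11. The gap was 0.898 of the range of the group. The same array was also the lowest of its group for 6 of the 8 members, a pattern whose share over all genes is not given. This was the only such array in 40 groups of 4 arrays (8 members, Vimp and Eif6). The 40 groups share the same arrays, so a single flag is not read as a finding, and its cause was not tested.

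Eif6, the target of the shRNA, had a change in translational efficiency of -1.069, which is the difference between its polysomal and its subpolysomal change and passed the test in limma, a call lost with spike-in scaling (-1.14, adjusted p = 0.99999). Gpx7, a peroxidase of the endoplasmic reticulum without selenocysteine, had a change in translational efficiency of -1.358 (adjusted p = 0.0376 in limma), but it was above background on no subpolysomal array of eIF6 shRNA cells, and its call was lost with spike-in scaling, with normalization before the filter, without the filter, in the authors' log2 table, with slide as a block, and with most single replicates left out.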

How the results depend on the processing

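The number of the 8 mRNAs called on polysomes, 3 as reported, lay between 2 and 4 under every alternative except scaling to the spike-in probes, where it was 0. In subpolysomal RNA the 1 call became 2 with the 75th percentile, 0 with the spike-in probes and 3 without replicate 4 of both shRNAs, and in translational efficiency 0 became 2 without replicate 4 of both. With single replicates left out, the counts were 2 to 4 on polysomes, 1 to 2 in subpolysomes, 0 to 2 in translational efficiency, 5 to 7 for the gradient in scramble cells and 6 to 7 in eIF6 shRNA cells. With a replicate block the counts were 3, 1, 0, 7 and 7, and with slide as a block they were the same. Of the other genes named, Pstk lost its subpolysomal call with the replicate block (-0.23, adjusted p = 0.0553 in limma). Same-numbered arrays correlated between -0.21 and 0.41.

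The spike-in probes turned the polysomal change to -0.26 for Gpx1, -0.15 for Gpx4, -0.34 for Txnrd2 and -0.45 for Vimp, and the subpolysomal change to -0.20 for Txnrd2, -0.13 for Selk and -0.22 for Eif6. They turned the change in translational efficiency to -0.11 for Gpx4, -0.22 for Txnrd1, -0.13 for Txnrd2 and -0.17 for Vimp, and the gradient difference of Gpx1 to 0.77 in scramble and 0.77 in eIF6 shRNA cells. The 75th percentile turned the subpolysomal change to 0.00045 for Gpx1 and 0.22 for Gpx4, the gradient difference of Gpx4 to -0.35 in scramble and -0.28 in eIF6 shRNA cells, and the translational efficiency change of Txnrd1 to -0.032. Normexp gave a polysomal change of -0.016 for Vimp. Without replicate 4 of both shRNAs, Gpx1 lay at 0.17 on the gradient of eIF6 shRNA cells and Txnrd2 at -0.00031 in translational efficiency. Leaving out single replicates moved values through 0 for the gradient of Gpx1 in eIF6 shRNA cells (-0.11 to 0.17), the translational efficiency of Txnrd1 (-0.079 to 0.13), the polysomal changes of Selk (-0.088 to 0.0099), Selt (-0.16 to 0.061) and Vimp (-0.049 to 0.071) and the subpolysomal change of Eif6 (-0.028 to 0.057). The cause was not tested.

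Gpx4 on polysomes was not called with the fractions normalized separately (0.30, adjusted p = 0.0504 in limma). That setting moved the median gradient difference of all genes to 1.38 in scramble cells and 1.41 in eIF6 shRNA cells. The gradient differences of the members are not given under it. Over all genes, translational efficiency was called for 78 genes higher and 214 lower, against 177 and 390 with normexp, 57 and 408 with the 75th percentile, 130 and 340 with separate fractions and 2 and 31 with the spike-in probes. In subpolysomal RNA the spike-in probes called 43 higher and 345 lower, against 2294 and 2390. The spread between arrays limits what can be seen: the standard error of a member's polysomal change was between 0.074 (Selk) and 0.16 (Sepw1).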
